A study of Mus musculus with 2 samples.

Results

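Expression of 6 chemokines and 1 chemokine-binding receptor of endothelial cells (ECs) was followed through 2 single-cell RNA-seq (scRNA-seq) libraries of mouse mammary tissue. The 7 genes, *Ccl2*, *Ccl7*, *Ccl5*, *Cxcl1*, *Cxcl12*, *Cx3cl1* and *Ackr1*, were taken by name, and all are among the 17641 genes listed for the normal library, the 15644 listed for the tumor library and the 18309 listed in either. One library came from pooled normal mammary glands of C57BL/6 mice aged 6 to 8 weeks (NECs), and the other from pooled E0771 tumors, a mouse mammary carcinoma line implanted orthotopically (TECs), both sorted for cells without CD45 and with CD31. Some deposited fields of the normal library name TECs and E0771 tissue, whereas its title and the series design give normal glands, which is how it was read. No genotype, treatment, strain or age is labelled for the tumor library, and neither library has a replicate.

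The normal library held 9047 barcodes and 40914092 unique molecular identifiers (UMIs, 1 per captured RNA molecule), with a median of 2973 per barcode. The tumor library held 704 barcodes and 18980858 UMIs, with a median of 14106.5. After cells with a UMI of *Ptprc*, the CD45 gene, had been set aside, 5409 normal cells and 262 tumor cells were endothelial by their *Cdh5* and *Pecam1* UMIs. A further 185 tumor cells, which had passed the same sort, were cancer-like by *Rhox5*, *Hmga2* and *Krt8*. The 3 groups held 20145494, 4656888 and 11908383 UMIs, with medians of 3071, 16950 and 62538 per cell. The libraries shared 3 barcodes, 2 of them among the cells kept.

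Chemokines are small secreted proteins that guide leukocytes along gradients, and ECs hold them on heparan sulfate at the vessel wall. CCL2 and CCL7 bring in monocytes through CCR2, CCL5 acts on T cells and monocytes through receptors such as CCR1, and CXCL1 draws neutrophils through CXCR2. CXCL12 is homeostatic, binds CXCR4 and is cleared by ACKR3. CX3CL1 is made as a membrane-bound protein that captures cells with CX3CR1, and ACKR1 is an atypical receptor of venules that binds many inflammatory chemokines without signaling.

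The label of the endothelial cells was first checked against markers. Of the 12 pan-endothelial genes examined, *Cdh5* and *Pecam1* were used by the rule, so these 2 cannot check it. All 12 were present in both endothelial groups. With these 2 included, they summed to 8642 CPM (UMIs scaled to a total of 1000000 per group) in NECs. The sum was 8534 CPM in TECs and 122 CPM in cancer-like cells. Outside the rule, *Egfl7* was the most abundant in the endothelium, at 1563 CPM in NECs and 2156 CPM in TECs. It was at 39.2 CPM in cancer-like cells. *Tek* and *Kdr* were at least 2-fold lower in TECs than in NECs. The rule admits a cell from a single UMI, however, and 316 NECs and 14 TECs had only 1. Among the 16 clusters of NECs, 1 of 177 cells was mural-like, with all 10 pericyte and smooth muscle markers enriched, *Acta2* the most abundant at 3953 CPM, and pan-endothelial genes at 3653 CPM. Values for NECs are therefore given with these 177 cells and, where it matters, without them, which leaves 5232 cells.

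Between TECs and NECs, 2 of the 7 genes were at least 2-fold higher (*Ccl2*, *Ccl5*), where 11.0% of the 6890 genes compared were, and 3 were at least 2-fold lower (*Cxcl1*, *Cxcl12*, *Ackr1*), where 19.1% were. *Cx3cl1* was within 2-fold, and *Ccl7* was below 20 CPM in both and was not counted. Between cancer-like cells and TECs, *Ccl2* and *Ccl7* were at least 2-fold higher, where 16.0% of 6771 genes were, and *Ccl5*, *Cxcl12* and *Cx3cl1* at least 2-fold lower, where 21.2% were. *Cxcl1* was within 2-fold and *Ackr1* was below 20 CPM in both. The lower *Ccl5* in cancer-like cells was within 2-fold once TECs needed 3 *Cdh5* or *Pecam1* UMIs (log2 ratio -0.39). Its sign turned after thinning each cell to 1900 UMIs (0.26). With 1 library per condition no test was possible, so a count of genes past 2-fold describes these libraries. The 95% intervals given with sums, shares and ratios cover counting error only.

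**Figure D1:**
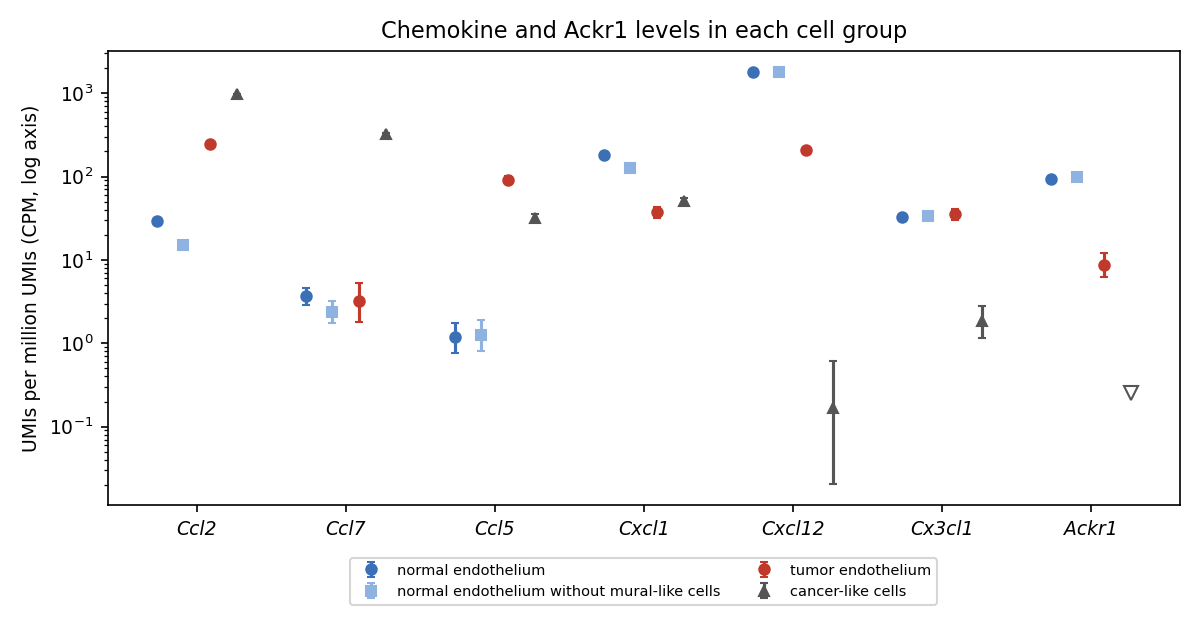
Level of each gene in CPM (log axis) in NECs, NECs without the mural-like cells, TECs and cancer-like cells, with 95% Poisson intervals as bars. The open triangle marks 3 UMIs, for *Ackr1* at 0 UMIs in cancer-like cells. *Ccl2* is lowest in NECs without the mural-like cells and highest in cancer-like cells. *Cxcl12* is at 1772 CPM in NECs and 0.168 CPM in cancer-like cells.

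*Ccl2*, the main monocyte attractant of the set, lies on chromosome 11 (82035577 to 82037452, GRCm38). It summed to 594 UMIs or 29.5 CPM (27.2 to 32.0) in NECs, 1155 UMIs or 248 CPM (234 to 263) in TECs and 11486 UMIs or 965 CPM (947 to 982) in cancer-like cells. The 3 groups did not overlap. The level in TECs was 8.41-fold that of NECs (7.61 to 9.30), and cancer-like cells were 3.89-fold above TECs (3.66 to 4.14). Without the mural-like cells NECs were at 15.2 CPM, and the ratio of TECs over NECs was 16.3-fold.

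*Ccl2* UMIs were found in 1.79% of NECs, 32.4% of TECs and 84.3% of cancer-like cells. To compare cells at equal depth, 1900 UMIs were drawn from each, and the shares then were 1.12% of 4273 NECs (0.829 to 1.49%), 13.8% of 240 TECs (9.66 to 18.8%) and 48.9% of 184 cancer-like cells (41.5 to 56.4%). The order was the same as that of the summed levels. In a cell type of the normal library that should lack the gene, a salivary-like cluster of 36 cells, 2 cells had a *Ccl2* UMI (5.56%, median depth 9111.5 UMIs, 1.10 CPM). The unthinned share in NECs was below this, but NECs were shallower (median 3071 UMIs) and 2 of 36 cells is few. These shares therefore cannot decide whether NECs are above background. The summed level of NECs, 29.5 CPM, was above that of the cluster. For the tumor library no such background share is given. At the *Ccl7* to *Ccl2* proportion of cancer-like cells, the *Ccl7* UMIs of TECs go with 45.3 *Ccl2* UMIs, or 3.92% of those observed. The 50 TECs with the most *Ccl2* held 96.7% of its UMIs. How much of the 32.4% is background was not tested.

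A few cells carried most of it. In NECs 10 cells held 62.8% of the *Ccl2* UMIs, and in TECs 10 cells held 68.1%, against 37.5% in cancer-like cells. The NEC with the most *Ccl2*, 106 UMIs, had 1 UMI of *Cdh5* and *Pecam1* together and 92 of mural genes. The TEC with the most, 140 UMIs, had 44 of *Cdh5* and *Pecam1* and 139 of the pan-endothelial list, with none of the mural, fibroblast, immune or cancer markers. Outside the mural-like cluster the highest NEC had 56 UMIs of *Ccl2*, 14 of *Cdh5* and *Pecam1* and 67 of the pan-endothelial list, also with none of those other markers.

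**Figure D2:**
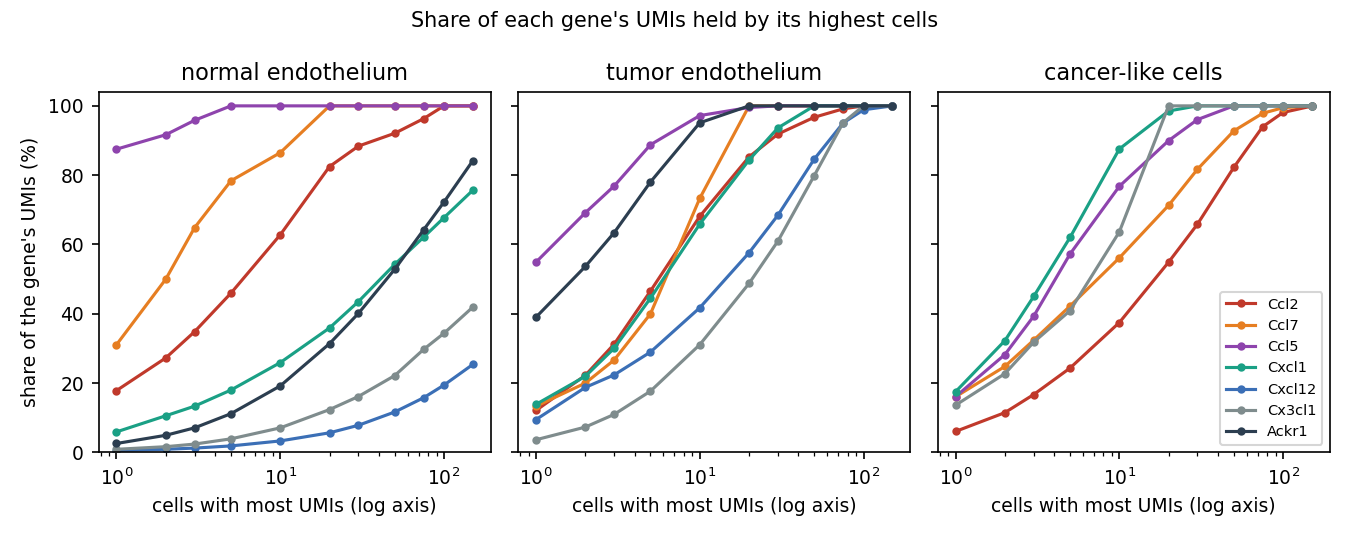
Share of a gene's UMIs (y axis, %) held by the cells with the most of them (x axis, number of cells, log scale) in NECs, TECs and cancer-like cells. *Ccl5* rests on 1 cell for 87.5% of its UMIs in NECs and 54.9% in TECs, whereas the 10 highest NECs hold only 3.32% of *Cxcl12*. *Cxcl12* and *Ackr1* are not drawn for cancer-like cells, which have under 10 UMIs of each.

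Markers of other cell types moved with *Ccl2* in the normal library. The 97 NECs with a *Ccl2* UMI had 3646 CPM of the 10 mural genes, led by *Rgs5* at 1188 CPM, against 823 CPM in the other NECs, and 1384 CPM of fibroblast genes, led by *Dcn*, against 76.0 CPM. Without the mural-like cluster, the 70 NECs with *Ccl2* still had 1587 CPM of fibroblast genes against 54.7 CPM and 562 CPM of mural genes against 219 CPM. Epithelial genes were at 640 CPM against 251 CPM in NECs, and at 879 CPM against 259 CPM without that cluster, led by *Wfdc18* at 415 CPM. In TECs the mural and fibroblast lists were low, at 35.4 and 9.34 CPM in the 85 cells with *Ccl2* and 66.7 and 6.48 CPM in the others. Epithelial genes were at 103 CPM against 3.05 CPM there, nearly all from *Cldn4* at 91.5 CPM. Of 6 epithelial genes compared, only *Cldn4* was at least 2-fold higher in TECs than in NECs, and 5 were lower. *Cldn4* was also at least 2-fold lower in cancer-like cells than in TECs. The 156 cancer-like cells with *Ccl2* had 303 CPM of fibroblast genes against 101 CPM in the 29 others, and 188 against 48.3 CPM of mural genes. A list of 16 cytokine response genes was at 1625 against 330 CPM. Median depths of these cells were 74538 and 10981 UMIs. The part of other cell types in the *Ccl2* levels was not tested. In NECs with at least 3 *Cdh5* or *Pecam1* UMIs *Ccl2* was at 16.9 CPM, against 399.98 CPM in the 316 with a single UMI.

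By cluster, *Ccl2* in NECs was highest in the mural-like cells at 238 CPM, which held 51.7% of its UMIs. The mitotic-like cluster of 104 cells followed at 145 CPM and a venous-like cluster of 117 cells, with *Htr2b* and *Gria3* among its leading genes, at 132 CPM, and these neighbors overlapped in their intervals. The HEV-like cluster, marked by *Glycam1* and *Fut7* of high endothelial venules, had 39.4 CPM. These levels rest on few cells, since a *Ccl2* UMI was found in 12.5% of mitotic-like cells, 5.98% of that venous-like cluster and 5.15% of HEV-like cells. In the mitotic-like cluster 10 cells held 97.8% of the UMIs. The other 12 clusters were at 5.57 CPM or less. The venous-like cluster with *Htr2b* also had 2184 CPM of fibroblast genes, with *Dcn* the most abundant at 1102 CPM, and the mitotic-like cluster had 4003 CPM of erythroid genes, led by *Hbb-bs*. Among normal cells outside the endothelium, a mural-like cluster of 84 cells had 2028 CPM and a fibroblast-like cluster of 24 cells had 1966 CPM, both above any NEC cluster.

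In TECs, *Ccl2* varied less among clusters. It stood at 303 CPM in the IFN-like cluster (105 cells with raised interferon-induced genes), 264 CPM in the tip-like cluster (46 cells), 198 CPM in a shallow unnamed cluster (58 cells, median 2208.5 UMIs) and 179 CPM in the mitotic-like cluster (53 cells). Each of these neighbors overlapped in its interval. All 4 levels were above those of the venous-like, HEV-like, capillary-like and arterial-like NEC clusters, although the intervals of the lowest 2 overlapped that of the venous-like cluster with *Htr2b*.

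*Ccl7* starts 8259 bases beyond the end of *Ccl2* on chromosome 11 (82045712 to 82047525), with no protein-coding gene between them, and its product shares the receptor CCR2. It summed to 74 UMIs or 3.67 CPM (2.88 to 4.61) in NECs, 15 UMIs or 3.22 CPM (1.80 to 5.31) in TECs and 3805 UMIs or 320 CPM (309 to 330) in cancer-like cells. NECs and TECs overlapped, with a log2 ratio of TECs over NECs of -0.19 (-1.10 to 0.62). With at least 3 *Cdh5* or *Pecam1* UMIs required, NECs were at 1.07 CPM and TECs at 3.08 CPM, and the log2 ratio was 1.52 (0.42 to 2.58). Cancer-like cells were 99.2-fold above TECs (60.1 to 177), a log2 ratio of 6.63. It was 5.45 without cells that carried any immune marker UMI and 7.04 after thinning. *Ccl7* UMIs occurred in 20 NECs, 14 TECs and 120 cancer-like cells, and after thinning in 0.211%, 0.417% and 26.1% of cells.

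The pair therefore differed in proportion between the cells of the tumor. For every 100 *Ccl2* UMIs there were 33.1 of *Ccl7* in cancer-like cells (31.9 to 34.4) and 1.30 in TECs (0.724 to 2.15). The level of *Ccl7* in TECs was 1.01% of that in cancer-like cells. The cancer markers *Rhox5*, *Hmga2* and *Krt8*, which the rule used, were at 0.551%, 0.771% and 0.238% by the same measure. The part of RNA from cancer-like cells in the *Ccl7* of TECs was not tested. In the normal library the proportion was 31.5 per 100 in the fibroblast-like cluster (25.6 to 38.4) and 2.60 in the mural-like cluster outside the endothelium (1.41 to 4.40).

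At 1900 UMIs per cell, 37 of 184 cancer-like cells had UMIs of both genes, which is 41.1% of the cells with *Ccl2*, while *Ccl7* was found in 11.7% of the cells without it. At this depth only 1 of 240 TECs and 9 of 4273 NECs had *Ccl7*, too few to compare cells with both. The cancer-like cell with the most *Ccl2*, 696 UMIs, was also that with the most *Ccl7*, 611 UMIs. Unthinned, the 120 cancer-like cells with *Ccl7* had 321 CPM of fibroblast genes against 190 CPM in the others. Mural genes were at 208 against 85.7 CPM and cytokine response genes at 1833 against 614 CPM. Median depths of these cells were 77353 and 30070 UMIs. *Ccl7* in NECs was highest in the venous-like cluster with *Htr2b*, at 52.2 CPM, from 3 of its 117 cells. The 15 NECs with *Ccl7* outside the mural-like cluster had 9767 CPM of fibroblast genes, led by *Dcn* at 3166 CPM, against 56.5 CPM in the others, and 1456 CPM of mural genes against 223 CPM. The part of these markers was not tested.

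*Ccl5*, a T cell and monocyte attractant, also lies on chromosome 11 (83525778 to 83530518). It summed to 24 UMIs or 1.19 CPM (0.763 to 1.77) in NECs, 428 UMIs or 91.9 CPM (83.4 to 101) in TECs and 379 UMIs or 31.8 CPM (28.7 to 35.2) in cancer-like cells. TECs were 77.1-fold above NECs (51.2 to 122), and cancer-like cells were 2.89-fold below TECs (2.51 to 3.32). Both ratios lean on single cells. In NECs 1 cell, with 41 pan-endothelial UMIs, held 21 of the 24. In TECs 1 cell held 235 of the 428.

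That tumor cell entered the endothelial group on 1 UMI of *Cdh5* or *Pecam1*. Of its 46678 UMIs 6 were pan-endothelial, 197 mitotic, 10 mural and 5 fibroblast, and *Rhox5*, *Hmga2* and *Krt8* were at 0. Among the 238 TECs with at least 3 *Cdh5* or *Pecam1* UMIs, *Ccl5* was at 41.8 CPM (36.1 to 48.2) in 19 cells. The ratio over NECs chosen in the same way was then 33.9-fold, still above 2-fold, but the log2 ratio of cancer-like cells over TECs was -0.39 (-0.65 to -0.14), which is within 2-fold. It was 0.02 as a mean of CPM over cells and 0.26 after thinning. The size of this difference thus moved with the choice of cells, and its sign with their weighting and depth. The cancer-like cell with the most *Ccl5*, 61 UMIs, had 52 of *Cdh5* and *Pecam1* beside 200 of the cancer markers.

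After thinning, *Ccl5* was found in 0.0468% of NECs, 4.58% of TECs (2.31 to 8.05%) and 6.52% of cancer-like cells (3.42 to 11.1%), and the latter pair overlapped. By cluster it stood at 188 CPM in the mitotic-like TECs, 60.8 CPM in tip-like and 35.5 CPM in IFN-like TECs. The mitotic-like TECs include the cell described above, which held 235 of their 296 UMIs. Their place above the tip-like TECs rests on that cell. The 22 TECs with a *Ccl5* UMI had 34.9 CPM of the immune marker list, with *Coro1a* the most abundant at 15.5 CPM, against 40.3 CPM in the other TECs. They had 10237 CPM of the interferon list against 7365 CPM, and 239 CPM of epithelial genes against 22.9 CPM. *Cldn4* alone made 202 of the 239 CPM. The part of these genes was not tested. Of the 16 NEC clusters, 12 had no *Ccl5* UMI.

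*Cxcl1*, the neutrophil attractant, lies on chromosome 5 (90891245 to 90893121). Its promoter is shown because the level of the gene differed widely between NEC clusters, as described below. The 250 bases before its start (RefSeq, GRCm38.p6, chr5:90890995-90891244, plus strand) are given 5′ to 3′, with matches to the κB core GGNNTTTCC on either strand in capitals:
Cxcl1: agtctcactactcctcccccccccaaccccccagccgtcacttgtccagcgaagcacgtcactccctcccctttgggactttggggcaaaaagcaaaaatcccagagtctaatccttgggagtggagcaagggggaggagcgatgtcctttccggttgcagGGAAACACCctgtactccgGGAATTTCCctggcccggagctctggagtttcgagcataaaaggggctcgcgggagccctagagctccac

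The 2 matches begin 89 and 70 bases before the start and do not overlap each other. Of the 32851 promoters in the same table (300 bases each, which run on past the start), 5.82% held this core. No match was found in the promoters of *Cxcl12*, *Cx3cl1* and *Ackr1*. A match is a description of letters and not of a bound site, and promoters of the 3 *Ccl* genes were not used here.

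*Cxcl1* summed to 3677 UMIs or 183 CPM (177 to 189) in NECs, 173 UMIs or 37.1 CPM (31.8 to 43.1) in TECs and 611 UMIs or 51.3 CPM (47.3 to 55.5) in cancer-like cells. TECs were 4.91-fold below NECs (4.22 to 5.76), or 3.42-fold without the mural-like cells, which were at 995 CPM and held 34.9% of the *Cxcl1* of NECs. Cancer-like cells were 1.38-fold above TECs (1.16 to 1.64). Thinned shares were 9.55% of NECs (8.68 to 10.5%), 5.00% of TECs (2.61 to 8.57%) and 3.26% of cancer-like cells (1.21 to 6.96%), so the order of the last pair turned and their intervals overlapped.

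In cancer-like cells *Cxcl1* was found in 29 of 185 cells, and 10 of these held 87.6% of its UMIs. The 29 cells had 93.5 CPM of the immune list, led by *S100a8* at 31.9 CPM, against 34.6 CPM in the others. Their median depths were 95147 and 54684 UMIs, and the part of these markers was not tested. Without cells that carried any immune marker UMI, the log2 ratio of cancer-like cells over TECs was -0.41. By cluster in NECs, *Cxcl1* was highest, after the mural-like cells, in the HEV-like cluster at 754 CPM (698 to 813), where 28.9% of cells had a UMI. Venous-like clusters followed at 351 CPM (with *Htr2b*) and 306 CPM (led by *Sele* and *Selp*), and these 2 overlapped. In the HEV-like cluster 10 cells held 87.3% of the UMIs. By share of cells the cluster led by *Sele* and *Selp* was above it, with a UMI in 52.1% of cells. Thinned shares were 27.4% there and 21.7% in HEV-like cells. The third venous-like cluster, led by *Cysltr1*, had 14.5 CPM. Outside the endothelium, mural-like cells had 2085 CPM and fibroblast-like cells 1659 CPM, against 15.4 CPM in the salivary-like cluster of 36 cells.

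Clusters of the same vessel type differed in *Cxcl1*. The capillary-like cluster led by *Car8* and *Timp4* had 9.92 CPM and the one in which *Hspa1a* was also among the leading genes had 139 CPM. The arterial-like cluster led by *Gja5* had 10.6 CPM and that led by *S100a4* had 112 CPM. The second of each pair also had more of 12 immediate early genes (*Fos*, *Jun*, *Egr1* and others that respond within minutes, and the heat shock genes *Hspa1a* and *Hspa1b*), with 29724 against 1537 CPM in capillary-like and 22063 against 3012 CPM in arterial-like cells. These genes are known to respond to tissue dissociation, and they were lower in TECs, at 3037 CPM against 12156 CPM in NECs. Their part in the *Cxcl1* levels was not tested.

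**Figure D3:**
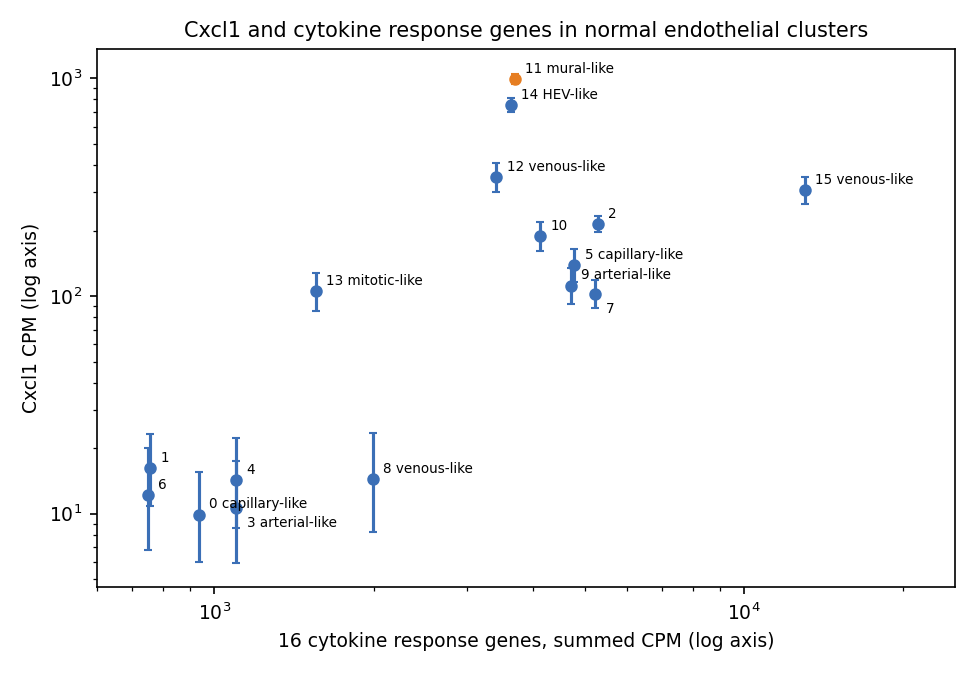
*Cxcl1* level (y axis, CPM, log scale, 95% Poisson intervals) against the summed level of 16 cytokine response genes (x axis, CPM, log scale) in the 16 NEC clusters, with the mural-like cells in orange. The 7 clusters at 1988 CPM or less on the x axis have 9.92 to 105 CPM of *Cxcl1*, and the 9 clusters at 3404 CPM or more have 102 to 995 CPM.

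The list of 16 cytokine response genes, which holds NF-κB inhibitors and adhesion molecules such as *Nfkbia*, *Tnfaip3*, *Icam1* and *Sele*, divided the NEC clusters in a similar way, with a gap seen after the values were known. In 7 clusters it summed to between 749 and 1988 CPM, and *Cxcl1* was between 9.92 and 16.3 CPM there except in the mitotic-like cells, at 105 CPM. In the other 9 it summed to between 3404 and 13010 CPM, with *Cxcl1* between 102 and 995 CPM. The clusters share a library and differ in depth, so this is a description. In both libraries the cells with *Cxcl1* had more of the list, with 6003 CPM against 2479 CPM in NECs and 2171 CPM against 1220 CPM in TECs. They also had more of the 12 immediate early genes, at 17549 CPM against 10780 CPM in NECs and 4941 CPM against 2518 CPM in TECs. Markers of other cell types also moved with *Cxcl1*. Mural genes stood at 2189 CPM against 592 CPM in NECs, and at 260.0 CPM against 220.2 CPM without the mural-like cluster. Without that cluster fibroblast genes, led by *Dcn*, were still at 241 CPM in the 612 NECs with *Cxcl1* against 60.6 CPM, and epithelial genes, led by *Krt14*, at 465 CPM against 233 CPM. In TECs epithelial genes were at 136 CPM against 22.4 CPM, but *Cldn4* made 134 CPM of this. Of the 7 epithelial genes listed, 5 had no UMI in the TECs with *Cxcl1*, so this is 1 gene and not the list. The part of these markers in the *Cxcl1* level was not tested.

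*Cxcl12*, the homeostatic ligand of CXCR4, lies on chromosome 6 (117168535 to 117181368). Its promoter is shown beside that of *Cxcl1* since it had no κB core but matched the GC box GGGCGG, a site of Sp1-family factors common in constitutive promoters. The 250 bases before the start (RefSeq, GRCm38.p6, chr6:117168285-117168534, plus strand) have these matches, on either strand, in capitals:
Cxcl12: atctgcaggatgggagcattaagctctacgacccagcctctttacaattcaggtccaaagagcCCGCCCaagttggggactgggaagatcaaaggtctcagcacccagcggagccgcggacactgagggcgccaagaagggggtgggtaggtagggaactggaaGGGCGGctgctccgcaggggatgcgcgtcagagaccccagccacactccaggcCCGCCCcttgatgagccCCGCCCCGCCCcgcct

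There are 5 matches, the last 2 of which overlap by 1 base, and 35.7% of the promoters in the table held at least 1. *Cxcl1* and *Ackr1* held none and *Cx3cl1* held 1.

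*Cxcl12* was the member most widely detected in NECs. It summed to 35697 UMIs or 1772 CPM (1754 to 1790) in NECs, 970 UMIs or 208 CPM (195 to 222) in TECs and 2 UMIs or 0.168 CPM (0.0203 to 0.607) in cancer-like cells. TECs were 8.51-fold below NECs (7.98 to 9.08), and 8.66-fold without the mural-like cells. Cancer-like cells were 1240-fold below TECs, with a counting interval of 342 to 10256. UMIs were present in 78.9% of NECs, 42.4% of TECs and 1.08% of cancer-like cells, though the cancer-like cells were the deepest of the 3 groups, and in 5.56% of the salivary-like cluster of 36 cells. Thinned, the shares were 71.8% (70.4 to 73.2%), 20.8% (15.9 to 26.5%) and 0 of 184 cells.

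Every NEC cluster had *Cxcl12*, from 181 CPM in the venous-like cluster with *Htr2b* to 6974 CPM (6828 to 7123) in an unnamed cluster of 303 cells led by *Tmem35a*, *Gm5*, *Penk* and *Pacsin1*. A related unnamed cluster of 282 cells, led by *Arc* and also with *Penk*, *Gm5* and *Pacsin1*, followed at 3993 CPM (3898 to 4090). They held 24.1% and 18.9% of the *Cxcl12* UMIs of NECs. Capillary-like clusters came next, at 2451 and 1591 CPM. Arterial-like cells were at 1439 and 928 CPM, and venous-like and HEV-like cells were lowest, between 181 and 465 CPM. Neighbors in the order down to the second capillary-like cluster did not overlap, whereas that led by *Gja5* and the unnamed cluster led by *Dcpp1*, both at 1439 CPM, did.

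All 4 TEC clusters were below the median NEC cluster, which without the mural-like cells was 1271 CPM. Tip-like TECs had the most, at 336 CPM (301 to 373), followed by IFN-like TECs at 233 CPM (211 to 256), unnamed shallow TECs at 130 CPM (84.4 to 193) and mitotic-like TECs at 105 CPM (89.6 to 122). The last 2 overlapped. Tip-like and IFN-like TECs were within the range of the venous-like and HEV-like NEC clusters, 181 to 465 CPM, and the last 2 were below it. The part of vessel type in the lower *Cxcl12* of TECs was not tested. Of the TEC total 41.8% lay in 10 of the 262 cells. The 111 TECs with *Cxcl12* had 80.7 CPM of epithelial genes, nearly all *Cldn4*, against 11.8 CPM in the others, and the part of these genes was not tested.

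**Figure D4:**
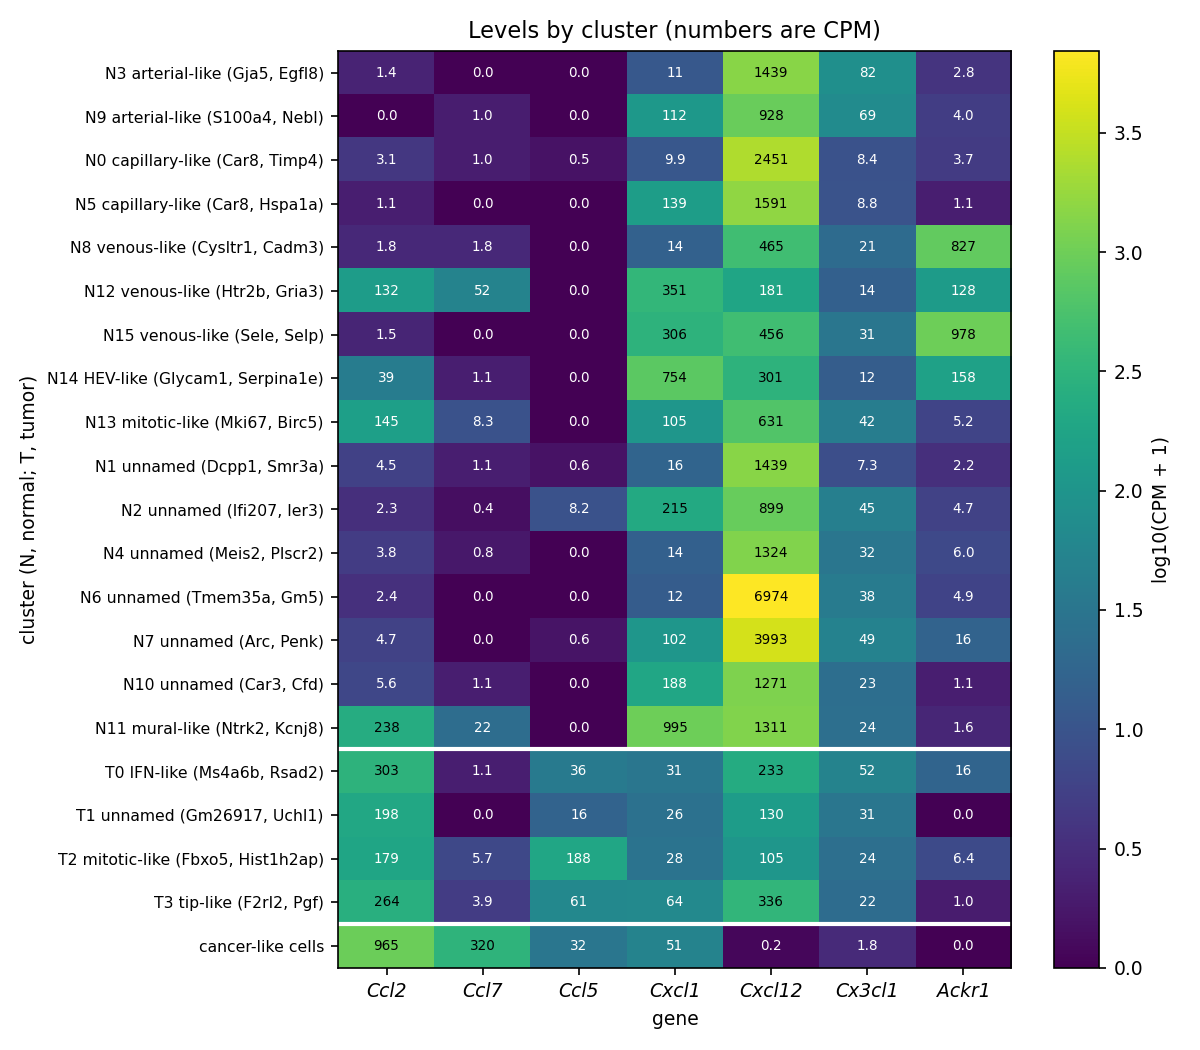
Level of each gene (columns) in the 16 NEC clusters, the 4 TEC clusters and the cancer-like cells (rows, with 2 of the leading genes in parentheses). Color is log10(CPM + 1) and the printed numbers are CPM. *Ackr1* stands out in 2 venous-like clusters at 827 and 978 CPM, and *Cxcl12* in the 2 clusters with *Penk*.

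*Cx3cl1*, which encodes the membrane-bound chemokine fractalkine, lies on chromosome 8 (94772180 to 94782427). It summed to 663 UMIs or 32.9 CPM (30.5 to 35.5) in NECs, 164 UMIs or 35.2 CPM (30.0 to 41.0) in TECs and 22 UMIs or 1.85 CPM (1.16 to 2.80) in cancer-like cells. NECs and TECs overlapped, with a log2 ratio of 0.10 (-0.16 to 0.35), and cancer-like cells were 19.1-fold below TECs (12.2 to 31.3). UMIs were in 9.89% of NECs and 31.7% of TECs, but thinned shares were 5.97% (5.28 to 6.72%) and 4.58% (2.31 to 8.05%), and 0.543% in cancer-like cells. No cell had more than 6 UMIs in either endothelium.

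In NECs *Cx3cl1* was highest in the 2 arterial-like clusters, at 82.1 CPM (67.8 to 98.5) and 69.4 CPM (54.0 to 87.8), which overlapped each other. The capillary-like clusters had 8.35 and 8.75 CPM and the HEV-like cluster 12.4 CPM. An unnamed cluster led by *Arc* and *Penk* had 49.1 CPM (39.1 to 60.9), which overlapped the second arterial-like cluster. So did an unnamed cluster led by *Ifi207*, at 45.0 CPM (37.1 to 54.0), and the mitotic-like cluster, at 41.6 CPM (29.7 to 56.7). The 535 NECs with *Cx3cl1* also had 689 CPM of epithelial genes, led by *Krt14* at 128 CPM, against 193 CPM in the other NECs, and their part in its level was not tested. Among TECs, the IFN-like cluster, which also carried 4 arterial markers, had 52.2 CPM (42.4 to 63.7) and tip-like cells 22.2 CPM (14.1 to 33.3). The gene was also found outside vessels, where a normal cluster outside the endothelium led by *Lalba*, a milk protein gene, had 95.4 CPM (79.6 to 113), while the salivary-like cluster of 36 cells had no UMI.

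*Ackr1* lies on chromosome 1 (173331886 to 173333503). It summed to 1860 UMIs or 92.3 CPM (88.2 to 96.6) in NECs, 41 UMIs or 8.80 CPM (6.32 to 11.9) in TECs and 0 UMIs in cancer-like cells. TECs were 10.5-fold below NECs (7.70 to 14.7), a log2 ratio of -3.39. It was -4.64 without cells that carried any immune marker UMI. UMIs were in 331 NECs (6.12%), 12 TECs (4.58%) and 0 of 185 cancer-like cells, which, taking 3 cells as the limit for a count of 0, allows a share of cells with a UMI of up to 1.62%. Thinned shares were 5.22% of NECs (4.57 to 5.93%) and 1.25% of TECs (0.259 to 3.61%). Of the 41 UMIs in TECs, 16 came from 1 cell and 95.1% from 10, and that cell had 34 UMIs of *Cdh5* and *Pecam1*. Outside the mural-like cluster, the 329 NECs with *Ackr1* had 49.6 CPM of immune genes against 23.1 CPM in the others. Mural genes were at 428 against 204 CPM, but *Tagln* alone made 363 of the 428 CPM, so this sum does not speak for the other mural genes. Immediate early genes were lower, at 5538 against 12424 CPM. The part of these genes in the *Ackr1* level was not tested.

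The clusters with *Ackr1* were the venous-like and HEV-like ones. It stood at 978 CPM (905 to 1056) in the venous-like cluster led by *Sele* and *Selp*, 827 CPM (774 to 882) in that led by *Cysltr1*, 158 CPM in HEV-like cells and 128 CPM in the venous-like cluster with *Htr2b*. The first 2 did not overlap and held 35.5% and 49.1% of the UMIs in 96 and 266 cells. The other 12 clusters were at 16.0 CPM or less. The IFN-like TECs, which carried 2 venous markers, had 16.2 CPM (10.9 to 23.1), and no TEC cluster was named venous-like. The lower *Ackr1* in TECs and a smaller share of venous cells among them cannot be told apart in the sums.

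**Figure D5:**
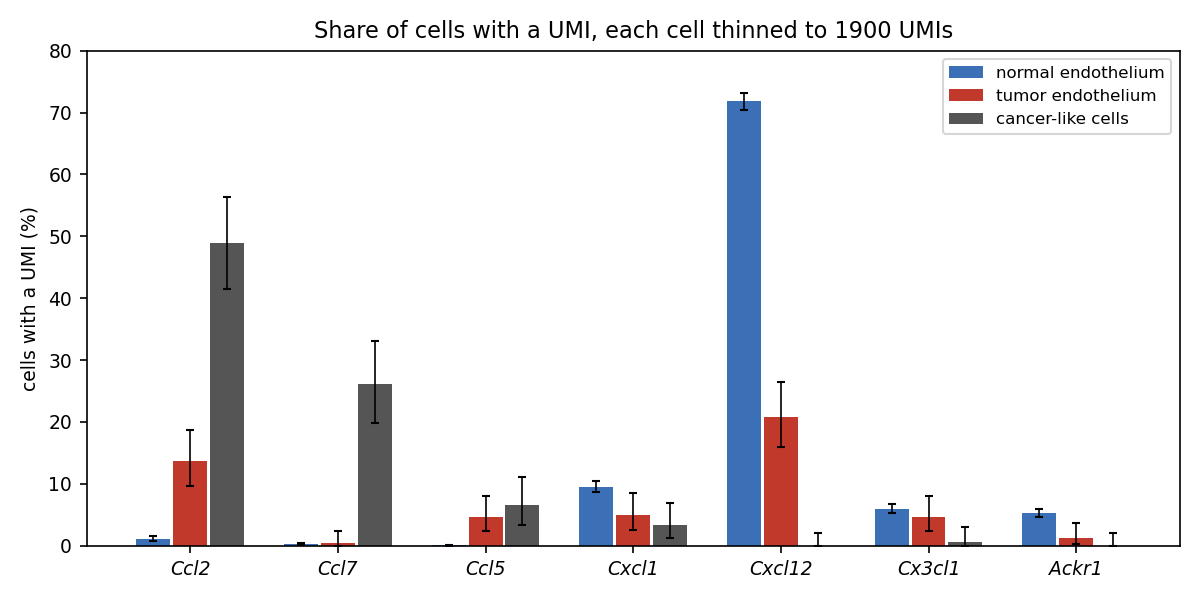
Share of cells with at least 1 UMI (y axis, %) for each gene after every cell was thinned to 1900 UMIs, in 4273 NECs, 240 TECs and 184 cancer-like cells, with Clopper-Pearson 95% intervals. *Cxcl12* is found in 71.8% of NECs and 20.8% of TECs, and *Ccl2* in 48.9% of cancer-like cells.

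Genes with a like pattern over the 16 NEC clusters were taken as those with the highest Pearson r of log2(CPM + 10) among 5493 other genes (5494 for *Ccl5*). For *Ackr1* they were *Nt5e* (r = 0.94), *Selp* (0.94) and *Arrb1* (0.92), and for *Cxcl1* they were *Tnfaip3* (0.94), *Gem* (0.91) and *Marcksl1* (0.87). For *Cxcl12* they were *Sparcl1*, *Efr3b* and *Pdgfb* (0.90 to 0.91), and for *Cx3cl1* *Rnh1*, *Efhd1* and *Tsc22d1* (0.77 to 0.81). *Ccl2* was most like *Parm1* (0.94), *Igfbp5* and *Irs2*, and *Ccl7* most like *Postn* (0.98), *Gsn* and *Islr*. *Ccl5*, with *Mbd1*, *Ppp6c* and *Ifi207*, rested on 1 cell. The 16 points share 1 library.

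Receptors for the ligands were largely missing from the endothelium. *Ccr2*, *Ccr1*, *Cxcr2* and *Cx3cr1* had between 0 and 3 UMIs in each of NECs and TECs. *Cxcr4* was 12.4-fold higher in TECs than NECs (10.7 to 14.5), at 144 CPM against 11.6 CPM, and was highest in tip-like TECs at 381 CPM (344 to 420), the cluster that also had the most *Cxcl12* among TECs. It was at 1.01 CPM in cancer-like cells. *Ackr3*, the scavenger of CXCL12, was at 73.0 CPM in NECs, 64.9 CPM in TECs and 51.1 CPM in cancer-like cells, and at 181 CPM in tip-like TECs.

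Of 28 chemokine ligands listed in both tables, 10 reached 20 CPM in NECs or TECs. Of these, 4 were at least 2-fold higher in TECs (11.0% of all genes compared), the other 2 being the T cell attractants *Cxcl9* (2121 against 152 CPM) and *Cxcl10* (1180 against 199.5 CPM). In TECs 5 were lower (19.1% of all genes), and besides *Cxcl1* and *Cxcl12* they were *Cxcl2* (16.1 against 34.1 CPM), *Cxcl16* (6.44 against 21.3 CPM) and *Ccl21a*, the CCR7 ligand of lymphatic and high endothelium, which had 0 UMIs in TECs and 329 CPM in NECs, at least 511-fold lower against 3 UMIs. The median log2 ratio of the 10 was -0.49, against -0.07 over all genes compared. Between cancer-like cells and TECs, *Ccl2*, *Ccl7* and *Cxcl2* were higher and 5 of 9 were lower, where 16.0% and 21.2% of all genes were. In cancer-like cells *Cxcl9* was at 14.8 CPM and *Cxcl10* at 47.6 CPM. *Ccl5*, among the 5, was within 2-fold when 3 *Cdh5* or *Pecam1* UMIs were required.

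Of 9 genes compared that release or hold chemokines, 1 was at least 2-fold higher in TECs than in NECs and 1 lower, where 11.0% and 19.1% of all genes were. The protease gene *Mmp14* was higher in TECs (231 against 15.4 CPM, 15.0-fold, 13.2 to 17.1) and *Glce*, a heparan sulfate epimerase, lower (4.72 against 27.2 CPM). *Adam10* and *Adam17*, whose products shed CX3CL1, were at 155 and 45.1 CPM in TECs and at 122 and 61.8 CPM in NECs. Between cancer-like cells and TECs 10 of these genes were compared, and 3 were higher and 5 lower, where 16.0% and 21.2% of all genes were. *Sdc1*, *Sdc4* and *Gpc1* were higher in cancer-like cells (159, 348 and 65.2 CPM against 2.58, 19.97 and 1.93 CPM), and *Hspg2* and *Sdc3* lower, as were *Ext1*, *Adam10* and *Mmp14*.

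All 16 cytokine response genes were compared between TECs and NECs, and 10 were at least 2-fold lower and 2 higher in TECs, where 19.1% and 11.0% of all genes were, with a median log2 ratio of -1.20. *Vcam1* was higher (254 against 79.9 CPM), as was *Tnip1*, while *Nfkbiz* (57.8 against 274 CPM), *Irf1* (133 against 611 CPM) and *Selp* (33.7 against 152 CPM) were lower. *Cxcl1* was thus lower together with these genes, and *Ccl2* and *Ccl5* were higher. Of 12 interferon-induced genes, 8 were at least 2-fold higher in TECs than in NECs (11.0% of all genes) and none lower, with sums of 7683 and 3443 CPM. In cancer-like cells 11 were lower than in TECs, against 21.2% of all genes.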

How the data were processed

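For the droplet scRNA-seq, the authors deposited a table of UMI counts per gene and barcode for each library, not normalized. Cell Ranger, Seurat and mm10 are named in the submitters' processing notes, which give no versions of the tools. Barcodes needed 200 detected genes and a mitochondrial share below 10% (6924 normal and 484 tumor cells), and 51 and 9 with *Ptprc* UMIs were set aside. A cell was endothelial if *Cdh5* plus *Pecam1* was at least 1 and above *Rhox5* plus *Hmga2* plus *Krt8*, and cancer-like if the latter sum was at least 3 and higher. This left 1464 other normal and 28 other tumor cells.

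UMIs were summed per group and divided by the group's total (CPM). Ratios have exact conditional binomial intervals, sums Poisson and shares Clopper-Pearson intervals, at 95%. Genes at 20 CPM in 1 group were compared, and 2-fold was the threshold. A group at 0 was set to 3 UMIs over the group. For thinning to 1900 UMIs, 1136 NECs, 22 TECs and 1 cancer-like cell were too shallow. Endothelial and other normal cells were clustered in Seurat 5.3.0 (R 4.3.3; 4000 variable genes less chemokine and receptor genes, 20 PCs, 20 neighbors, resolution 0.8). A cluster was named "-like" when at least 3 genes of 1 marker list were in 25% of its cells at 2-fold, at least 1 ranked in its top 10 (chemokines left out) and no other list led. Scrublet (scanpy 1.11.5) called 0 doublets in both libraries, so the caller did not work and none were removed. Python 3.11.15, numpy 2.4.6, scipy 1.17.1, pandas 2.3.3 and matplotlib 3.10.9 were used. The ratio was tested on simulated Poisson counts of whole groups, which had no spread between cells, so that test does not cover such spread.

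The genes named are the 7 members, listed genes of the chemokine, receptor, processing and cytokine response families (by size of ratio), up to 3 genes of like pattern each, cluster leaders and markers. Members, rule and lists were chosen with earlier results of these data known. Alternatives covered the cell filters, thresholds, totals, thinning and clustering, and 3 were added after the data were seen: NECs without the mural-like cells, that with 3 UMIs required, and TECs without the shallowest cluster. Some listed and leading genes are not reported here.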

Additional observations from a re-analysis of the deposited data

Results flagged for a closer look

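Cells with a *Ptprc* UMI were outside the comparisons, and in them 4 members in the normal library and 2 in the tumor library were above the endothelium of the same library. In the 51 such cells of the normal library *Ccl7* was at 765.2 CPM (4 cells with a UMI), *Ccl5* at 552.3 CPM (5 cells), *Cxcl1* at 436.5 CPM (7 cells) and *Ccl2* at 425.7 CPM (4 cells). In the 9 of the tumor library *Ccl2* was at 378.1 CPM (6 cells) and *Ccl7* at 175.6 CPM (4 cells), and these 9 cells also had *Rhox5* at 707 CPM.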

How the results depend on the processing

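With 1 library per condition no result has a replicate, and no paired analysis was possible because no comparison rests on a test. The counts of members past 2-fold between TECs and NECs, 2 higher and 3 lower, were the same under all alternatives run. At a 4-fold threshold, only 1 member (*Ccl7*) was higher in cancer-like cells than in TECs, since *Ccl2* was 3.89-fold. The count of 3 lower there ranged from 2 to 4, and it was 4 with no filter on CPM. The log2 ratio of cancer-like cells over TECs changed sign for *Ccl5*, from -1.53 to 0.021 as a mean over cells and 0.26 after thinning, and for *Cxcl1*, from 0.47 to -0.032 after thinning and -0.41 without cells with immune marker UMIs. The cause was not tested. For TECs over NECs the log2 ratio of *Ccl2* ranged from 2.66 to 4.21, *Ccl5* from 5.00 to 6.34, *Cxcl1* from -2.44 to -1.70, *Cxcl12* from -3.24 to -2.87, *Cx3cl1* from -0.21 to 0.58 and *Ackr1* from -4.64 to -2.80. *Ccl7*, with 15 UMIs in TECs, ranged from -0.75 to 1.68, and it was 1.52 when 3 *Cdh5* or *Pecam1* UMIs were required. For cancer-like cells over TECs, *Ccl2* ranged from 1.75 to 2.22, *Ccl7* from 5.45 to 7.04 and *Cx3cl1* from -5.01 to -3.42. In that comparison *Cxcl12* ranged from -10.6 to -4.57 and *Ackr1* from -5.19 to -1.67.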
